A study of Mus musculus with 3 samples.

Results

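Enzymes that form or remove lysophospholipids and oxidized phospholipids, 9 of the 27998 genes counted, were followed through the cell types of folic acid (FA)-treated mouse kidneys. They were chosen by name, as enzymes whose substrates are related to those of acyloxyacyl hydrolase (AOAH), and all 9 were present in the count tables under the symbols Lpcat1, Lpcat2, Lpcat3, Lpcat4, Pla2g4a, Pla2g7, Pla2g15, Pla2g16 and Enpp2. Droplet single-cell RNA sequencing (scRNA-seq) was done on day 14 of the FA model, with 2 libraries from Aoah-/- kidneys, labelled replicates 2 and 3, and 1 from a WT kidney, labelled replicate 3, all from mice aged 6 to 8 weeks. FA crystals injure the tubules, so all 3 kidneys were injured and no untreated kidney was part of the comparison. The Aoah-/- mice lack AOAH in every cell and not in the tubule alone, on a C57BL/6J background, and WT littermates of heterozygous parents were the controls.

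Membrane phospholipids are remodelled in a cycle: a phospholipase A2 removes 1 fatty acid and leaves a lysophospholipid, and a lysophospholipid acyltransferase puts another fatty acid back. The products on the way are signals, since arachidonic acid is the source of prostaglandins and leukotrienes, platelet-activating factor (PAF) activates leukocytes, and lysophosphatidic acid (LPA) acts on its own receptors on fibroblasts and epithelium. AOAH itself removes fatty acids from lipopolysaccharide and can also act on phospholipids, and in the kidney it is found mainly in proximal tubular epithelial cells (PTECs).

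The libraries held 25516, 24693 and 23072 barcodes with 167222984, 161015021 and 158551992 UMIs (unique molecular identifiers, 1 for each captured RNA molecule) for Aoah-/- replicate 2, Aoah-/- replicate 3 and WT, the order used for all sets of 3 values. After cells with fewer than 200 genes or more than 50% mitochondrial UMIs were left out, 59262 cells remained, and 54911 of them fell in 16 classes named by marker genes and called "-like". Levels are UMIs summed over the cells of a class in a library per 1000000 UMIs of those cells (CPM). With a single WT library no test between genotypes was possible, and intervals are exact Poisson 95% intervals that cover counting error only. Aoah was at 13.1, 11.7 and 26.4 CPM in PTEC-like cells and at 3.58, 3.55 and 16.1 CPM in macrophage-like cells, so Aoah reads were fewer but not absent in the libraries labelled Aoah-/-. Whether the counted 3′ end lies outside the deleted part is not given in the sources used here. The libraries stood apart in ways that touch the values below. Of the PTEC-like cells, a subcluster with RNA of immune cells held 2.18%, 34.0% and 0.460%, of the macrophage-like cells an Alox15-led cluster held 40.0%, 0.665% and 3.68%, and 517 barcode sequences occurred in more than 1 library.

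Positions are those of the GENCODE M21 annotation on GRCm38. Of the acyltransferases, Lpcat1 is at chr13:73467197-73516422, Lpcat2 at chr8:92855339-92919279, Lpcat3 at chr6:124663027-124704418 and Lpcat4 at chr2:112239468-112247111, all on the plus strand. Of the phospholipases, Pla2g4a is at chr1:149829618-149961290 on the minus strand, and Pla2g7 (chr17:43568098-43612201), Pla2g15 (chr8:106150399-106164715) and Pla2g16 (chr19:7557459-7588545) are on the plus strand. Enpp2 is at chr15:54838901-54952892 on the minus strand. The span of Lpcat2 overlaps that of the counted gene Capns2 on its own strand, and how reads in the shared stretch were counted was not checked.

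Of the 9 genes, 8 have a promoter in RefSeq (GRCm38.p6, 250 bases before to 50 after the start). The promoters of Lpcat3, which reached 5 CPM in all 16 classes, and Pla2g7, which did so in 9, are shown because the SD of the log2 levels between classes was lowest for Lpcat3 (0.67) and highest for Pla2g7 (2.16) among the 9. Capitals mark the GC box GGGCGG and, in Lpcat3, 1 PU.1 core GAGGAA, each searched on both strands.
Lpcat3, chr6:124662854-124663153, plus strand: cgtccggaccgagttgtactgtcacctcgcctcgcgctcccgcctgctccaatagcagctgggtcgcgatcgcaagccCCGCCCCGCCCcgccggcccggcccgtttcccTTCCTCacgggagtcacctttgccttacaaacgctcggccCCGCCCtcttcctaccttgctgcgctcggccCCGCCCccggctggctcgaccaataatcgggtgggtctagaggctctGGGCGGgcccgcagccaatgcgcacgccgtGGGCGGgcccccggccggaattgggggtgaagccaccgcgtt
Pla2g7, chr17:43568201-43568500, plus strand: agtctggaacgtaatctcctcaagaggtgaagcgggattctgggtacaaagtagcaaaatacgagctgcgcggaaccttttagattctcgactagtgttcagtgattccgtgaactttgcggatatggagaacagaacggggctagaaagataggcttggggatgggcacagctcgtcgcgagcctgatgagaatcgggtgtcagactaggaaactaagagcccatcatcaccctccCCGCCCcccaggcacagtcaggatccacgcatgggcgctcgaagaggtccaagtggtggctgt
The Lpcat3 window held 6 GC boxes, 2 of which overlap by 1 base, and the Pla2g7 window held 1. Of all 32851 promoters of this length, 35.7% held a GC box and 28.3% a PU.1 core. These matches describe the letters only. RefSeq and GENCODE place the start of Pla2g7 differently. The GENCODE start given above, 43568098, comes before the printed window, which thus lies within the gene as annotated there.

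The 9 enzymes did not share 1 cell type as their highest, but Lpcat3, Pla2g16 and Enpp2 reached 5 CPM in all 16 classes. These are measured levels, and for Enpp2 the PTEC RNA reckoned in other classes is given below. Enpp2 and Lpcat3 were highest in PTEC-like cells, Lpcat2 and Pla2g7 in granulocyte-like cells, Pla2g15 in macrophage-like cells, Lpcat1 in endothelial-like cells, Pla2g16 in T lymphocyte-like cells, Lpcat4 in natural killer-like cells and Pla2g4a in fibroblast-like cells. For 7 of the 9 the 3 libraries of the highest class did not overlap those of the second class. The share of all genes with such a separation was not computed, so this count only describes the 9. The exceptions were Pla2g16 and Pla2g4a. For Lpcat2 the margin was narrow. Aoah-/- replicate 3 had 114.8 CPM (interval 100 to 131) in granulocyte-like and 114.3 CPM (108 to 121) in macrophage-like cells. For Lpcat4, the WT interval of natural killer-like cells (9.56 to 36.7 CPM) covered the 12.0 CPM of T lymphocyte-like cells. Lower in the order the classes ran into each other, and of 15 pairs of neighbouring classes the library ranges overlapped in 10 (Pla2g16) to 14 (Lpcat4 and Pla2g15).

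**Figure D1:**
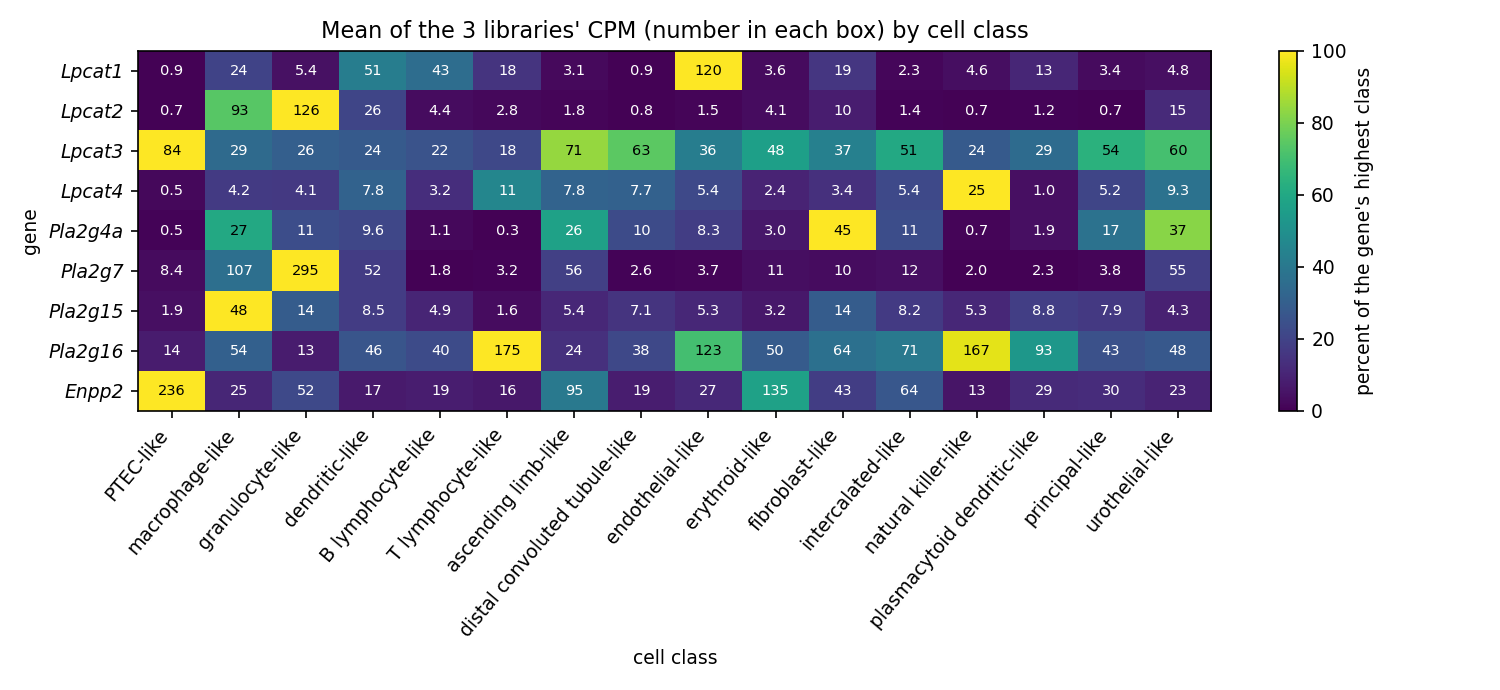
Levels of the 9 enzymes (rows) in the 16 cell classes (columns). The number in each box is the mean CPM of the 3 libraries and the colour is that mean as a percent of the gene's highest class. Lpcat3 is spread over all columns, while Lpcat2 and Pla2g7 are concentrated in granulocyte-like and macrophage-like cells.

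Of the acyltransferases, Lpcat3, which puts polyunsaturated fatty acids into phosphatidylcholine, had its highest mean levels in tubule classes. It was at 92.2, 83.3 and 77.7 CPM in PTEC-like cells, at 69.8, 70.3 and 73.2 CPM in ascending limb-like cells and at 67.8, 59.1 and 62.0 CPM in distal convoluted tubule-like cells. Urothelial-like cells followed at 72.1, 54.5 and 52.0 CPM. These values form a shallow slope: with 1 CPM added, the highest class was 4.42-fold above the lowest, T lymphocyte-like cells, at 19.0, 16.9 and 19.1 CPM. RNA freed from PTECs would carry some Lpcat3 into other cells, and its share was reckoned from the PTEC markers found there. In ascending limb-like cells this gave 6.69, 8.77 and 9.44 CPM, below the measured level in each library. In erythroid-like cells it gave 38.1, 47.0 and 37.5 CPM against 48.9, 56.9 and 37.5 CPM measured. In granulocyte-like cells it gave 17.5, 17.8 and 11.6 CPM against 22.4, 27.5 and 26.9 CPM measured. The reckoning takes all PTEC marker RNA in a class as carried over, and it can overshoot, as given below for Pla2g7. The source of the measured Lpcat3 was not tested.

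Lpcat1, which makes the dipalmitoyl phosphatidylcholine of lung surfactant, was an endothelial and leukocyte gene here. It was at 116, 122 and 122 CPM in endothelial-like cells, at 53.8, 52.4 and 46.1 CPM in dendritic-like cells and at 39.3, 38.4 and 50.5 CPM in B lymphocyte-like cells. The endothelial values lay close together, and no library of another class came near them. In PTEC-like cells Lpcat1 was nearly missing, at 0.632, 1.81 and 0.346 CPM.

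Lpcat2, which can acetylate lyso-PAF to PAF in inflammatory cells, was a myeloid gene. It was at 134, 115 and 129 CPM in granulocyte-like cells, at 85.5, 114 and 79.8 CPM in macrophage-like cells and at 29.6, 30.7 and 18.2 CPM in dendritic-like cells, against 0.703, 1.11 and 0.173 CPM in PTEC-like cells. Macrophage-like cells, being far more numerous than granulocyte-like cells, held 72.0%, 68.8% and 70.3% of all Lpcat2 UMIs. Lpcat4, which favours lysophosphatidylethanolamine, was the faintest of the 4 in UMIs. Among the named classes, natural killer-like cells were highest at 26.2, 27.7 and 19.9 CPM, but these values rest on 13, 14 and 10 UMIs. T lymphocyte-like cells followed at 11.2, 10.8 and 12.0 CPM. Natural killer-like cells held only 2.22%, 2.14% and 2.47% of all Lpcat4 UMIs. Cells that fell in no named class held 24.96%, 30.53% and 33.58%, more than any named class, and their level was not ranked with the classes.

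Of the phospholipases, Pla2g7, the secreted PAF acetylhydrolase that also cuts oxidized phospholipids, had the steepest distribution. It was at 280, 240 and 364 CPM in granulocyte-like cells and at 87.6, 141 and 92.7 CPM in macrophage-like cells, and with 1 CPM added it was 104-fold lower in B lymphocyte-like than in granulocyte-like cells. Epithelium was not free of it. Ascending limb-like cells had 61.1, 64.8 and 42.3 CPM and urothelial-like cells 69.6, 52.9 and 41.2 CPM, levels similar to the 44.0, 49.1 and 62.8 CPM of dendritic-like cells, whereas distal convoluted tubule-like cells had 3.06, 4.44 and 0.320 CPM.

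Pla2g4a, the cytosolic phospholipase A2 that releases arachidonic acid, was measured in stroma, urothelium, macrophages and the distal nephron. Fibroblast-like cells had 43.2, 57.9 and 35.2 CPM, urothelial-like cells 42.1, 33.1 and 36.8 CPM, macrophage-like cells 26.5, 30.2 and 25.7 CPM and ascending limb-like cells 23.4, 25.7 and 28.8 CPM. The fibroblast and urothelial ranges overlapped. Cells that fell in no named class held 20.6%, 29.2% and 37.7% of Pla2g4a UMIs, and their level was not ranked with the classes. PTEC-like cells had 0.544, 0.752 and 0.200 CPM, and in T lymphocyte-like cells 0, 7 and 0 UMIs were counted.

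Pla2g15, the lysosomal phospholipase A2, marked macrophage-like cells at 46.7, 55.1 and 41.4 CPM, with granulocyte-like cells next at 14.3, 15.9 and 11.5 CPM. Pla2g16, a phospholipase first studied in adipose tissue and now named Plaat3, went the other way among leukocytes. T lymphocyte-like cells had 165, 169 and 190 CPM, natural killer-like cells 131, 168 and 203 CPM and endothelial-like cells 128, 120 and 120 CPM. Granulocyte-like cells, at 14.9, 10.6 and 13.5 CPM, and PTEC-like cells, at 13.7, 14.6 and 12.2 CPM, were the lowest classes. Pla2g16 was thus low in the very class in which Lpcat2 and Pla2g7 were highest.

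Enpp2 encodes autotaxin, the secreted lysophospholipase D that turns lysophosphatidylcholine into LPA. It was at 271, 247 and 189 CPM in PTEC-like cells, which held 82.5%, 78.9% and 87.1% of its UMIs. By the PTEC markers found in the other classes, PTEC RNA would bring some Enpp2 to each of them. How far it did so was not tested. In macrophage-like cells 26.2, 26.7 and 23.7 CPM were measured, against 23.7, 24.2 and 21.8 CPM reckoned from PTEC markers. Ascending limb-like cells were above that, with 115, 89.2 and 80.9 CPM measured against 19.7, 26.0 and 23.0 CPM reckoned. Intercalated-like cells were as well, with 76.0, 69.9 and 46.9 CPM measured against 14.1, 13.6 and 16.9 CPM reckoned. The second class in the order, erythroid-like cells, had 177, 127 and 99.4 CPM measured against 112, 140 and 91.4 CPM reckoned, above in Aoah-/- replicate 2, below in replicate 3 and close in WT.

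Along the proximal tubule 4 members were high enough to compare between clusters led by Slc5a2, the glucose transporter of the early segments, and clusters led by Slc7a13, a transporter of the last segment. Enpp2 was higher in the Slc5a2-led cells, at 378, 360 and 295 CPM against 253, 218 and 192 CPM, a log2 ratio of 0.64 ± 0.07 (SD, n = 3 libraries). Pla2g7 was higher there too, at 18.7, 14.1 and 6.96 CPM against 10.9, 8.80 and 3.35 CPM (log2 ratio 0.74 ± 0.12). Pla2g16 and Lpcat3 had the opposite slope. Pla2g16 was at 6.27, 6.51 and 3.16 CPM in the Slc5a2-led cells against 12.3, 17.2 and 10.3 CPM (log2 ratio -1.20 ± 0.29), and Lpcat3 at 83.2, 74.8 and 64.9 CPM against 105, 88.2 and 89.5 CPM (log2 ratio -0.34 ± 0.11). All 4 ratios had the same sign in each of the 3 libraries. The subcluster with immune RNA, which held 2.18%, 34.0% and 0.460% of PTEC-like cells, was not left out here. Its part in the ratios was not tested. PTEC-like clusters led by neither gene held 3888, 1471 and 4679 cells. In them Slc7a13 was at 244, 365 and 350 CPM and Slc5a2 at 48.1, 44.6 and 45.3 CPM. Pla2g16 was at 27.6, 19.4 and 22.7 CPM, above both other sets in each library, while Enpp2 (157, 156 and 111 CPM) and Pla2g7 (5.27, 3.97 and 1.69 CPM) were below both. Lpcat3, at 76.7, 81.1 and 59.0 CPM, was below both in Aoah-/- replicate 2 and WT and between them in replicate 3. Its slope above thus holds for the Slc5a2-led and Slc7a13-led sets only. These levels are given without a test, because the clusters were made from the same cells, although the 9 enzymes took no part in the clustering.

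**Figure D2:**
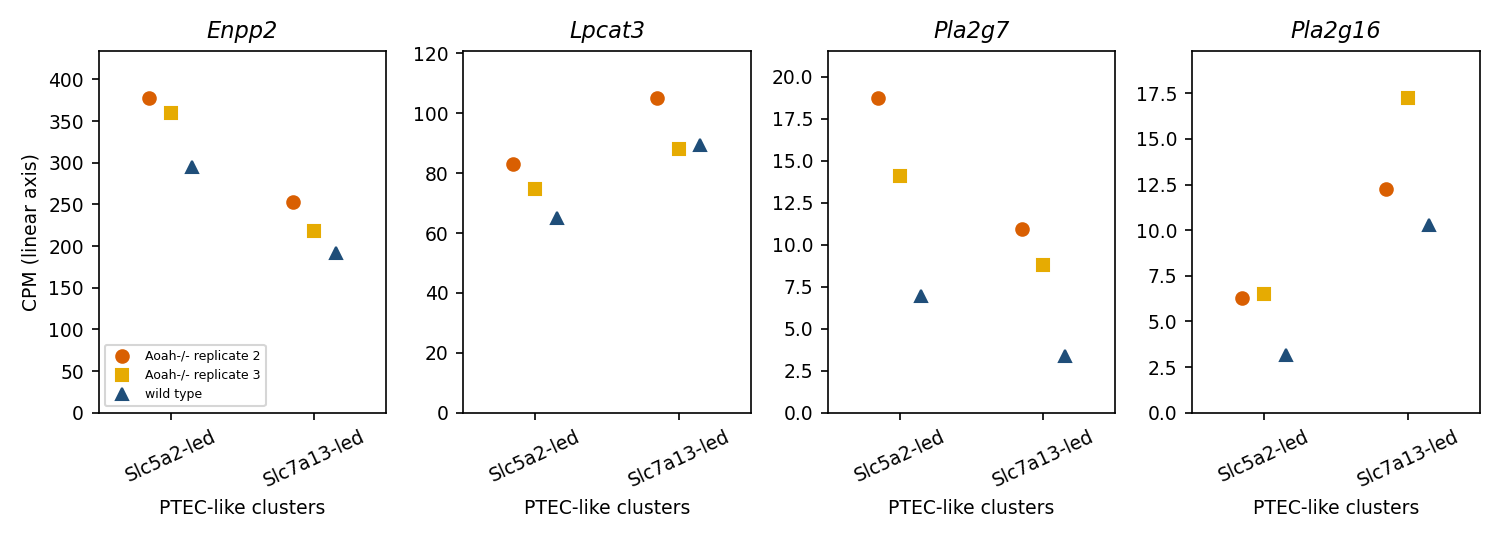
CPM of Enpp2, Lpcat3, Pla2g7 and Pla2g16 (linear axes from 0, 1 panel per gene) in Slc5a2-led and Slc7a13-led PTEC-like clusters, 1 point per library. Enpp2 and Pla2g7 are lower and Lpcat3 and Pla2g16 higher in the Slc7a13-led clusters in each library.

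Macrophage-like cells were not uniform either. Values of the deeper of 2 C1qa-led clusters (800, 1318 and 627 cells) and of the Ly6c2-rich cluster (406, 434 and 275 cells), whose cells carry a monocyte marker, are set side by side here. The other C1qa-led cluster, with 879, 138 and 1141 cells of low depth, had 71.4, 22.4 and 42.4 CPM of Lpcat2 on 62, 9 and 46 UMIs. Lpcat2 was at 132, 141 and 105 CPM in the deeper C1qa-led cluster and at 52.2, 54.0 and 61.9 CPM in the Ly6c2-rich cluster. Pla2g15 was at 73.5, 69.3 and 62.6 CPM against 19.5, 15.3 and 8.25 CPM, while Pla2g7 was at 131, 147 and 100 CPM against 172, 151 and 131 CPM. The ranges of Lpcat2 and Pla2g15 therefore did not overlap between these clusters, and those of Pla2g7 did, although its level was higher in the Ly6c2-rich cluster of each library. The share of all genes with ranges apart in this way was not computed, so the values only describe these clusters. The Lpcat2 range of the other C1qa-led cluster overlapped that of the Ly6c2-rich cluster. In the Alox15-led cluster, with 1388, 13 and 78 cells, Pla2g7 was at 46.8 CPM and Lpcat1 at 5.94 CPM in Aoah-/- replicate 2, both below the deeper C1qa-led cells of that library (131 and 34.3 CPM).

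The question of the study was what the loss of AOAH changes in injured kidneys. A gene was called past the fold when the mean of the Aoah-/- libraries was at least 1.5-fold above or below WT with 1 CPM added, both lay on the same side of WT by more than the gap between them, and the gene had at least 5 CPM in a group and 20 UMIs in all. In PTEC-like cells 4 members were high enough to be judged and 1, Pla2g7, was higher in Aoah-/-, where 2.79% of the 9126 genes judged were higher and 4.32% passed in either direction. Pla2g7 was at 12.1 CPM (interval 11.2 to 13.1), 9.47 CPM (8.68 to 10.3) and 3.54 CPM (3.13 to 3.99), a log2 difference of 1.38 with an SD of 0.23 between the Aoah-/- libraries. The fold rule itself asks both Aoah-/- libraries to lie on the same side of WT, so their agreement is not a separate result. The intervals did not meet, but they cover counting error only and not the spread between animals. The difference was present along the tubule: it was 1.13 (SD 0.27) in Slc5a2-led and 1.32 (SD 0.20) in Slc7a13-led cells.

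RNA of other Pla2g7-rich cells moved in the same direction. The 12 macrophage markers summed to 362, 500 and 181 CPM in PTEC-like cells with none at 0, and the 8 granulocyte markers to 26.5, 72.5 and 5.57 CPM with 1, 0 and 1 of them at 0. At the ratios found in those cells themselves, the macrophage RNA would bring 1.02, 1.76 and 0.509 CPM of Pla2g7, the granulocyte RNA 0.157, 0.393 and 0.0386 CPM, the ascending limb RNA 1.05, 1.43 and 0.686 CPM and the urothelial RNA 0.123, 0.0677 and 0.0207 CPM. Taken singly, each of these is below the measured level in its library, and each is higher in both Aoah-/- libraries than in WT. Contributions from several cell types would add. The reckoning can also overshoot. In distal convoluted tubule-like cells, ascending limb RNA would bring 12.9, 18.5 and 10.5 CPM of Pla2g7, above the 3.06, 4.44 and 0.320 CPM measured. Without the PTEC-like subcluster that carried immune RNA, Pla2g7 was at 12.0, 8.25 and 3.50 CPM, a log2 difference of 1.31 (SD 0.35). After each cell was thinned to 1000 UMIs, Pla2g7 was seen in 0.945%, 1.22% and 0.286% of PTEC-like cells, against 0.471%, 0.205% and 0.168% of T lymphocyte-like cells, and in 6.23%, 6.30% and 2.38% of PTEC-like cells without thinning. Median depths were 3057.5, 4159 and 4831.5 UMIs in PTEC-like and 2496, 3030 and 2920.5 UMIs in T lymphocyte-like cells, and thinning left out 2015, 0 and 1858 shallower PTEC-like and 130, 0 and 70 shallower T lymphocyte-like cells. How far RNA from other cells contributed to the Pla2g7 difference was not tested beyond these values.

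Across the 16 classes, Pla2g7 was above WT in both Aoah-/- libraries in 12, below it in both in 2 (granulocyte-like and dendritic-like) and neither in 2. Enpp2 was above WT in both in 13 classes and Lpcat2 in 12, and the same count over all genes was not made. Many of the Pla2g7 values are faint. Its log2 difference was 1.85 in distal convoluted tubule-like cells, on 13, 23 and 1 UMIs. In fibroblast-like cells it was 3.23 (SD 0.96), on 4, 22 and 2 UMIs, and in T lymphocyte-like cells 1.20, on 28, 22 and 5 UMIs. Intercalated-like cells, at 13.9, 14.1 and 8.48 CPM, passed the fold, as 4.67% of genes did there in either direction. Endothelial-like cells, at 4.88, 5.46 and 0.754 CPM, passed it on 10, 18 and 1 UMIs, as did 9.45% of genes. In ascending limb-like cells the log2 difference did not reach the fold although both Aoah-/- libraries (61.1 and 64.8 CPM) were above WT (42.3 CPM).

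**Figure D3:**
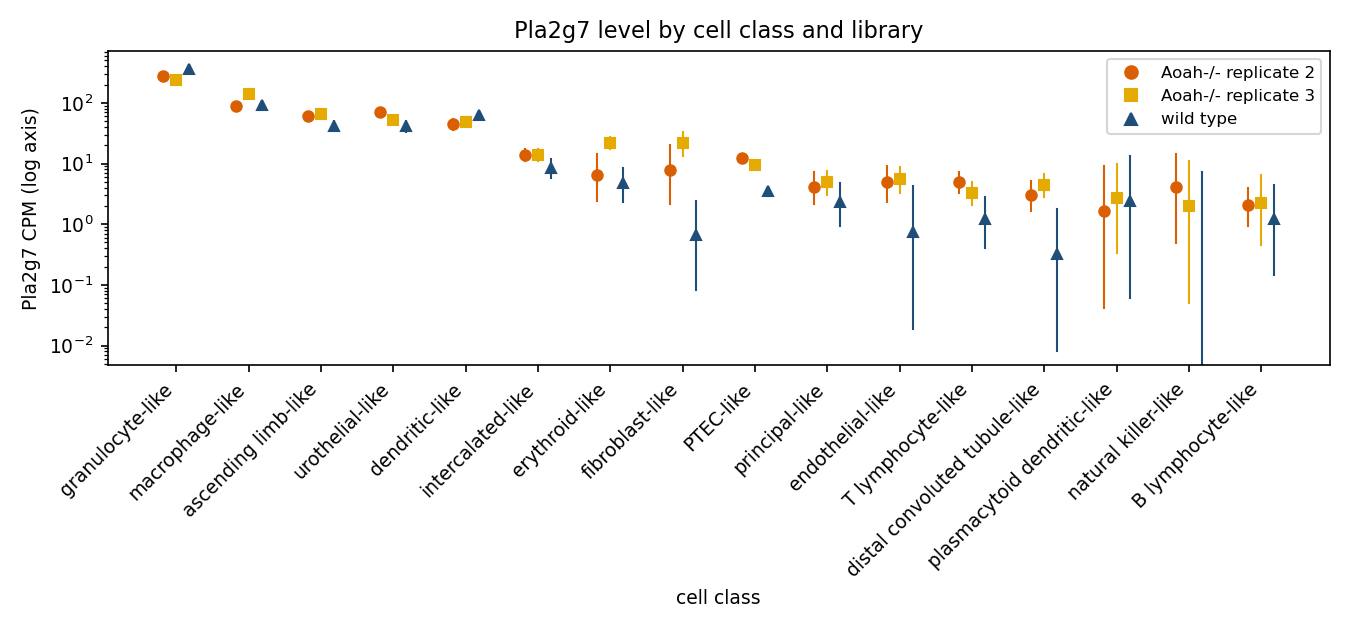
Pla2g7 CPM (log axis) in the 16 cell classes, ordered by mean level, 1 point per library with its exact Poisson 95% interval. The WT point of PTEC-like cells lies below both Aoah-/- points, while in granulocyte-like cells it lies above them; the WT library of natural killer-like cells had 0 UMIs, so only its interval is drawn.

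The other 3 members judged in PTEC-like cells had smaller differences. Enpp2 was higher in both Aoah-/- libraries (271 and 247 against 189 CPM), with a log2 difference of 0.45 (SD 0.09) that stayed under the fold. Lpcat3 differed by 0.17 (SD 0.10) and Pla2g16 by 0.20 (SD 0.06). Without the subcluster that carried immune RNA, Pla2g16 was at 13.7, 12.1 and 12.1 CPM. The 5 members not judged were at or under 2.20 CPM in each library.

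In macrophage-like cells all 9 members were judged and 0 passed the fold, where 4.71% of 9666 genes did. The clusters that made up the class differed between the libraries: a low-UMI C1qa-led cluster held 25.3%, 7.06% and 53.8% of its cells and a deeper C1qa-led cluster 23.0%, 67.4% and 29.6%, beside the Alox15-led cluster given above, and the median depth of the class was 3858, 4592 and 1433 UMIs. The part of these differences in the values was not tested. Lpcat1 was at 15.2 and 32.7 CPM, on both sides of the WT value of 24.7 CPM, and Pla2g7 at 87.6 and 141 CPM around 92.7 CPM. The 3 macrophage-rich genes Lpcat2, Pla2g7 and Pla2g15 had log2 differences of 0.32 (SD 0.29), 0.30 (SD 0.48) and 0.29 (SD 0.16), and Pla2g16 one of -0.30 (SD 0.01). Without the Alox15-led cluster the SD between the Aoah-/- libraries fell for 5 members and rose for Lpcat4, Pla2g4a, Pla2g16 and Enpp2, the largest rise being from 0.02 to 0.29 for Enpp2. Lpcat2 was then at 103, 115 and 84.2 CPM, Pla2g7 at 136, 142 and 98.3 CPM and Pla2g15 at 51.8, 55.1 and 41.0 CPM. All 3 genes then lay above WT in both Aoah-/- libraries and still under the fold, at log2 differences of 0.37 (SD 0.11), 0.49 (SD 0.04) and 0.37 (SD 0.06).

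**Figure D4:**
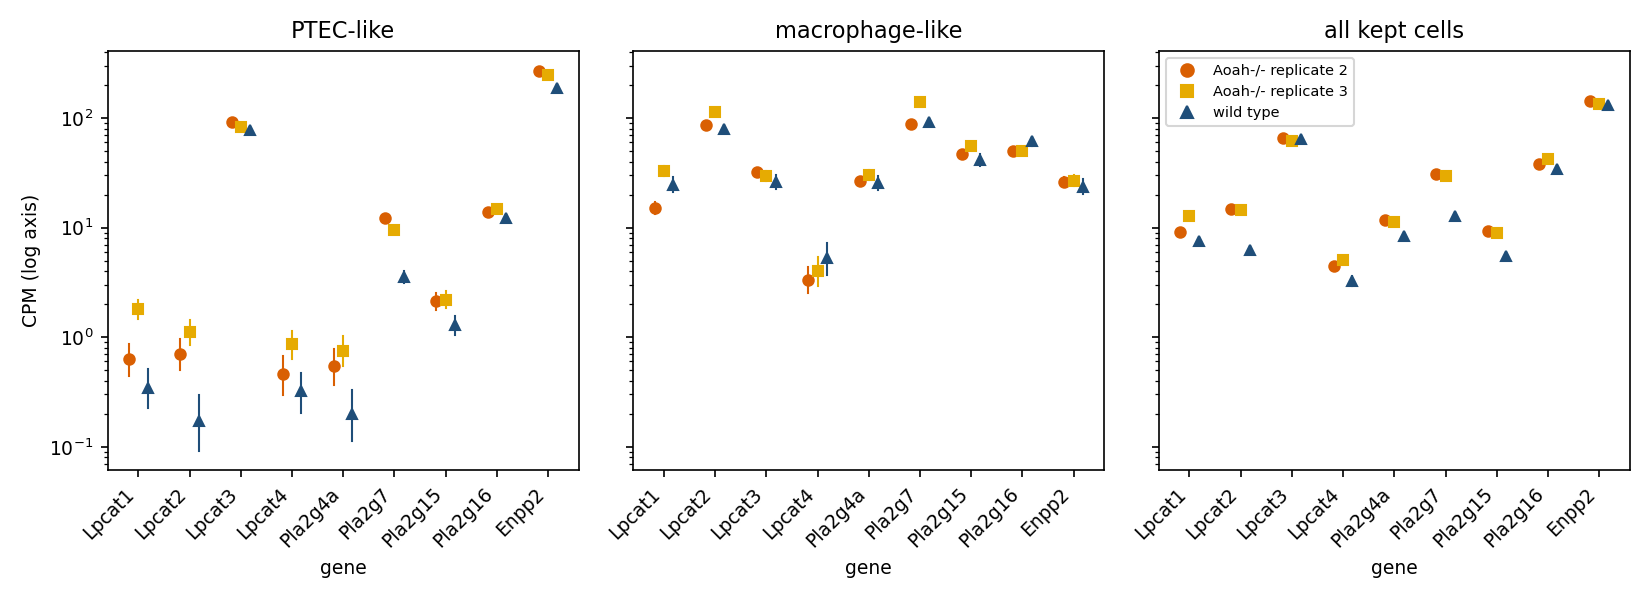
CPM (log axis) of the 9 enzymes in PTEC-like cells, macrophage-like cells and all kept cells, 1 point per library with its exact Poisson 95% interval. Among the members past 5 CPM in PTEC-like cells, Pla2g7 is the one whose WT point lies past the fold below the Aoah-/- points, and in all kept cells Lpcat2, Pla2g7 and Pla2g15 are.

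Taking the kidney as a whole, 3 members passed the fold and all 3 were higher in Aoah-/-, where 5.82% of genes were higher. Lpcat2 was at 14.8, 14.4 and 6.27 CPM, Pla2g7 at 30.6, 29.7 and 12.9 CPM, and Pla2g15 at 9.36, 8.85 and 5.49 CPM over all kept cells. Macrophage-like cells held the largest share of the UMIs of each. Other classes held much of Pla2g7, such as PTEC-like cells with 17.1%, 13.7% and 16.6%. Granulocyte-like cells held 1.86%, 2.60% and 0.877% of the Pla2g15 UMIs. The makeup of the libraries also differed, and its part in these differences was not tested. Granulocyte-like cells were 3.85%, 3.39% and 1.17% of kept cells, macrophage-like cells held 12.5%, 8.65% and 5.53% of kept UMIs, and PTEC-like cells held 43.2%, 42.9% and 60.3% of them. With every class given the share of UMIs it had in the WT library, Lpcat2 came to 7.66, 9.51 and 6.27 CPM, Pla2g15 to 6.05, 6.55 and 5.49 CPM and Pla2g7 to 19.4, 21.3 and 12.9 CPM. The gap to WT was narrower for all 3 genes on that scale, and it stayed widest for Pla2g7. Both Aoah-/- libraries remained above WT for each gene, and the fold rule was not applied to these values. In summed RNA, more cells of a type and more RNA per cell cannot be told apart, and the differences in makeup rest on single animals and on barcodes whose lowest UMI totals were 500, 1672 and 500.

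Over all 16 classes, 104 pairs of a member and a class could be judged, of which 12 were higher and 4 lower in Aoah-/-, where 6.06% and 4.23% of 150186 pairs of any gene and class were. Some were in classes with few cells, in which many genes passed. In fibroblast-like cells (90, 150 and 392 cells, 27.8% of genes past the fold in either direction, as in the shares that follow) Lpcat2 was at 15.7, 11.8 and 2.68 CPM on 8, 12 and 8 UMIs and Pla2g15 at 11.8, 6.88 and 22.8 CPM. In granulocyte-like cells (21% of genes) Pla2g4a was at 5.60, 9.52 and 17.3 CPM, and Enpp2 at 64.0, 57.1 and 34.6 CPM against 51.6, 52.8 and 28.3 CPM reckoned from PTEC RNA. Lpcat2 in dendritic-like cells, at 29.6, 30.7 and 18.2 CPM on 66, 93 and 49 UMIs, was better counted (7.86% of genes). Enpp2 in intercalated-like cells was higher in Aoah-/-, at 76.0, 69.9 and 46.9 CPM (4.67% of genes), against 14.1, 13.6 and 16.9 CPM reckoned from PTEC RNA. Enpp2 RNA from other classes was not reckoned there, and the source of the difference was not tested. The remaining pairs past the fold were Lpcat2 in B lymphocyte-like (11%) and urothelial-like (8.97%) cells, Lpcat4 and Pla2g15 in distal convoluted tubule-like cells (6.46%), Lpcat4 in endothelial-like cells (9.45%), and Enpp2 in T lymphocyte-like (4.94%) and natural killer-like (12.3%) cells, beside the Pla2g7 pairs given above. Enpp2 was at 20.8, 15.8 and 10.0 CPM in T lymphocyte-like cells against 15.3, 10.8 and 9.30 CPM reckoned from PTEC RNA. In natural killer-like cells it was at 22.2, 15.8 and 1.99 CPM, on 11, 8 and 1 UMIs, against 21.1, 8.17 and 5.40 CPM reckoned.

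The members stood among other genes of lipid remodelling, counted here from lists of enzymes, receptors and partner proteins. Of 11 other lysophospholipid acyltransferases, 8 were judged in PTEC-like cells and 0 passed the fold, and 9 were judged in macrophage-like cells and 1 was lower. That one was Agpat4, an acyltransferase of phosphatidic acid synthesis, at 19.7, 20.8 and 40.0 CPM. Agpat3 was the highest of the list in both classes, at 150, 151 and 149 CPM in PTEC-like cells and at 40.6, 41.7 and 37.3 CPM in macrophage-like cells. Of 11 lysophospholipases, 7 were judged in PTEC-like cells and 1, Pnpla7, was higher at 8.47, 7.22 and 4.86 CPM, and 10 were judged in macrophage-like cells with 0 past the fold. The list's highest genes were Lypla1 in PTEC-like cells, at 167, 171 and 181 CPM, and Abhd12, which hydrolyses lysophosphatidylserine, in macrophage-like cells, at 94.5, 125 and 97.9 CPM.

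Among 22 other phospholipases A2 and A1, 7 and 5 were judged in PTEC-like and macrophage-like cells and 0 passed. Of all genes judged, 4.32% and 4.71% passed in these classes, so counts of 0 in short lists are descriptions only. Prdx6, a peroxiredoxin with phospholipase A2 activity, led in PTEC-like cells at 174, 179 and 216 CPM, and Plbd1 in macrophage-like cells at 133, 283 and 267 CPM. No member of the list of 5 other PAF acetylhydrolases and the PAF receptor passed (4 and 5 judged), and Pafah1b1, a subunit of the intracellular acetylhydrolase, was the highest in both classes, at 102, 109 and 123 CPM and at 165, 173 and 167 CPM. No gene of the 11 around LPA passed either (4 and 5 judged), with Plpp2, which dephosphorylates LPA, leading in PTEC-like cells at 26.8, 27.3 and 24.2 CPM and the receptor Lpar6 in macrophage-like cells at 35.5, 75.6 and 53.7 CPM. Of 14 genes of the steps from arachidonic acid onward, 5 and 13 were judged and 0 passed. Ptges3 led in PTEC-like cells, at 115, 119 and 125 CPM, and Alox5ap, the partner of 5-lipoxygenase, in macrophage-like cells, at 590, 395 and 450 CPM.

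The genes whose levels followed the members most closely were sought among 10345 genes that reached 20 CPM in some class, by Pearson's r of log2(CPM + 1) over 48 values of a class in a library. These points share 3 libraries and their free RNA, and r is given as a description. Lpcat3 was followed by Abcd3, a peroxisomal transporter of fatty acids (r = 0.918), Pebp1 (0.910) and Slc25a51, and Enpp2 by Mettl7a1 (0.889), Slc16a12 and Fut9, genes of the tubule. Lpcat2 was followed by Slc11a1, a metal transporter of phagosomes (0.910), Tgfbi (0.908) and Cebpb, and Pla2g7 by Arg2 (0.846), Il1b and Cd14. The closest to Pla2g15 was Tgfbr1 (0.750), before Ints12 and Abcd2. Lpcat1 was followed by Grasp (0.881), Xaf1 and St6galnac4, and Pla2g16 by Arl6ip5 (0.844), Fryl and Prkacb. Lpcat4 was nearest to Pik3r1 (0.767), Bcl2 and Ttc39b, and Pla2g4a to Ier3 (0.854), Ptgfrn and Egr1, of which Ier3 and Egr1 are early response genes that tissue digestion is known to induce. Among the members themselves r was highest between Lpcat2 and Pla2g7 (0.800) and lowest between Lpcat1 and Lpcat3 (-0.635).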

How the data were processed

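Single-cell suspensions of collagenase-digested kidneys were sequenced as droplet 3′ libraries. Per barcode, the UMI counts of 27998 genes were deposited by the authors as counted, without normalization. The submitters' processing notes name Cell Ranger 3.1.0, STAR, Seurat 4.2.0 and mm10, while the matrix headers name Cell Ranger 6.1.2. Barcodes needed 200 genes and no more than 50% mitochondrial UMIs. The kept cells, scaled to 10000 UMIs each, were clustered in scanpy 1.11.5 (2000 variable genes, 50 principal components, 15 neighbours, resolution 1). The 9 members, the lipid lists, MHC class II genes, Cd74 and Aoah took no part in clustering. A cluster was named for the class whose markers led it, and 4351 cells stayed unnamed. Doublets were kept, since Scrublet called 544, 0 and 201 cells. Its threshold did not work in Aoah-/- replicate 3.

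UMIs were summed per library and class. The level that PTEC RNA would bring to a class is the PTEC-like level times the ratio of summed PTEC markers in both classes, and other cell types were treated alike. Cells were not treated as replicates. Genes named were all members, the 3 genes most like each member, and list genes that passed the fold or were highest in PTEC-like or macrophage-like cells. Genes called judged met the count and level minimums of the rule. Members and lists were chosen with earlier results of these data known. Promoters were matched by symbol to RefSeq (Pla2g16 as Plaat3), with 8 of 9 found. Alternatives changed the cell filters, clustering, scale, thresholds and libraries.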

Additional observations from a re-analysis of the deposited data

Results flagged for a closer look

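Several members passed the fold in opposite directions in different classes. The fold rule already asks the Aoah-/- libraries to agree in direction, so their agreement in these classes is not a separate result. The differences between classes were not tested, and how often any gene passed in opposite directions was not counted. Of all genes judged, 11% passed in either direction in B lymphocyte-like, 7.86% in dendritic-like and 27.8% in fibroblast-like cells. The share was 8.97% in urothelial-like, 6.46% in distal convoluted tubule-like and 9.45% in endothelial-like cells. The log2 difference of Lpcat2 was 0.89 in B lymphocyte-like, 0.70 in dendritic-like and 2.001 in fibroblast-like cells, and -0.63 in urothelial-like cells. In B lymphocyte-like cells it rests on 21, 8 and 4 UMIs and in fibroblast-like cells on 8, 12 and 8 UMIs. The log2 difference of Lpcat4 was 0.70 in distal convoluted tubule-like and -0.67 in endothelial-like cells, the latter on 8, 16 and 10 UMIs. That of Pla2g15 was 0.89 in distal convoluted tubule-like cells, on 35, 46 and 13 UMIs, and -1.20 in fibroblast-like cells, on 6, 7 and 68 UMIs. The same comparison holds 1 WT library throughout, so all values share the state of that animal and library.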

How the results depend on the processing

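No paired analysis was possible because the groups share only replicate number 3. The count of members past the fold in PTEC-like cells was 1 (Pla2g7) under the alternatives run, except that it was 2 with no minimum level (Lpcat2 and Pla2g7) and 0 with at least 20 CPM, a level that Pla2g7 does not reach. It was 1 to 1 when either Aoah-/- replicate was left out. The log2 difference of Pla2g7 there ranged from 0.87 with a mitochondrial limit of 20% to 1.53 without Aoah-/- replicate 3. In macrophage-like cells the count of 0 became 1 with a mitochondrial limit of 20%, with at least 500 genes per cell and without the 10% of cells that Scrublet scored highest (Lpcat4 each time), and 1 with the mean of per-cell CPM (Pla2g4a). It was 1 to 1 without replicate 2 (Pla2g7) or replicate 3 (Lpcat1), so these calls rest on a single Aoah-/- library. The cause was not tested. The class with the highest level was the same for 7 to 9 of the 9 members; Pla2g4a moved to urothelial-like or endothelial-like cells and Pla2g16 to natural killer-like cells under some clusterings. Leaving out the immune RNA subcluster, the Alox15-led cluster, all but the largest macrophage-like cluster or cells under 1672 UMIs was chosen after seeing the data and changed no count. Of the single log2 differences, 263 stayed within the spread between the Aoah-/- libraries and 70 moved further, with 0 reversed among called values.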
